A study of Homo sapiens with 16 samples.

Results

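Integrins are the cell-surface receptors that hold cells to the extracellular matrix, and laminins are the matrix proteins of the basement membrane that many of them bind. The genes described here are 20 integrin and 10 laminin genes, taken as a named list by symbol. The list was chosen with earlier results of these data known. Of these 30, 28 were measured by at least 1 probe set that names a single gene (19 integrins and 9 laminins of 18132 genes tested), and ITGB6 and LAMA3 were not analysed here. RNA came from H1 human embryonic stem cells, an established pluripotent line, during differentiation toward definitive endoderm, the germ layer that forms the gut, liver and pancreas. The medium held activin A, first together with BMP4 and FGF2 and later by itself, and the RNA was read on 16 Affymetrix PrimeView arrays in 8 groups of 2. Control cells carried an empty lentiviral vector and were taken at day 0, when they were pluripotent, and at days 3, 4 and 5. GATA6-depleted cells carried a lentiviral short hairpin RNA against GATA6, a zinc finger transcription factor, and were taken at days 3, 4 and 5. Rescue cells carried that hairpin and a GATA6 cDNA that is resistant to it and is switched on by doxycycline, were given doxycycline at 60 ng/mL for 96 h, and were taken at day 5. Only the rescue cells received doxycycline, the transduced cells were polyclonal populations and not single clones, and no depleted sample of day 0 was among the arrays.

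Each integrin is a pair of an alpha and a beta chain, and the pairing sets the ligand: ITGB1 joins most alpha chains, ITGAV joins several beta chains, and the chains of ITGA3, ITGA6 and ITGA7 bind laminin. Each laminin is a trimer of an alpha, a beta and a gamma chain, and the alpha chain carries most of the receptor binding. In the early embryo, laminin trimers built on LAMA1 or LAMA5 with LAMB1 and LAMC1 form the first basement membranes, and human pluripotent cells are commonly grown on laminin-rich matrix that they hold through ITGA6 with ITGB1.

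Because the hairpin targets a factor that binds GATA motifs, the promoters of members that changed are shown first. RefSeq promoters of GRCh38.p14, from 250 bases before to 50 bases after the start, were found for 22 of the 30 genes. A GATA motif (AGATAA or AGATAG or TGATAA or TGATAG, on either strand) was found in 3 of the 22 (13.6%), against 8769 of 35116 promoters of this length (25%). The 3 were ITGA6 with 1 match, ITGB7 with 2 and LAMA4 with 1. ITGA6 is printed as the member with a match whose level moved most, and ITGA4 and LAMB1 as members without one that changed with depletion. Capitals mark the match, which in ITGA6 lies at the far end of the window and is read on the opposite strand. A match is a description of the letters and not a binding site. The study reports that GATA6-bound sequences lay mainly between genes and in introns, with few in proximal promoters. The lack of a match in this window was therefore not a test of GATA6 binding to a gene.
ITGA6, chr2:172427086-172427385, plus strand: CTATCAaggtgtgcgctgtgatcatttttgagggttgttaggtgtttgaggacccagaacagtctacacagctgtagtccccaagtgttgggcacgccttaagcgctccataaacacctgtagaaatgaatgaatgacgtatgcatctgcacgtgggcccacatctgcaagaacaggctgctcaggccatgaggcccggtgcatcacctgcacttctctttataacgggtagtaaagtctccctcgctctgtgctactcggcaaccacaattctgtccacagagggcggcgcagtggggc
ITGA4, chr2:181457136-181457435, plus strand: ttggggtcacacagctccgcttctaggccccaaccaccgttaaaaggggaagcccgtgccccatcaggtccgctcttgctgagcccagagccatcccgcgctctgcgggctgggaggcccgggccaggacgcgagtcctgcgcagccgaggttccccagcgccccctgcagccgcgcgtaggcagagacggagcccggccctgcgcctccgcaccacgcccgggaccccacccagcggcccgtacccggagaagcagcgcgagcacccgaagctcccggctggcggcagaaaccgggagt
LAMB1, chr7:108003112-108003411, minus strand: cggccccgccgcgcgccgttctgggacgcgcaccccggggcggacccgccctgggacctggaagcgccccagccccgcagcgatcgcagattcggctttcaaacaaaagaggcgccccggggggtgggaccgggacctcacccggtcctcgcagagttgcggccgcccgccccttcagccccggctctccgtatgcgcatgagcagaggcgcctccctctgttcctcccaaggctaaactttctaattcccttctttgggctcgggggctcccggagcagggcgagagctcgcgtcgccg

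Levels are log2 values after robust multi-array averaging. Each difference is in log2 units, and the number after ± is its standard error, with 2 arrays in each group. A gene was called at a limma adjusted p under 0.05 over all genes. GATA6, read by 1 probe set, had a mean of 1.79 at day 0, 11.52, 11.48 and 11.53 in control cells at days 3, 4 and 5, 9.83, 7.27 and 6.49 in depleted cells, and 8.37 in rescue cells. Whether this probe set reads the rescue cDNA is not known, and the study reports overexpression of GATA6 in the rescue line with doxycycline. The 12 definitive endoderm markers had a mean level of 9.85 to 10.07 on the control day 5 arrays, 6.41 on both depleted day 5 arrays and 3.38 to 3.46 at day 0. All 12 were lower in depleted than in control cells at days 4 and 5 (13.3% and 16% of all genes were). The 5 leukocyte markers stayed at a mean of 2.63 to 3.07 on every array. The lower quartile of an array was 3.36 to 3.50. ITGA1, ITGB2 and ITGB3 lay below it in every group, ITGA4 and ITGA8 in 4 groups each, and ITGB7 and ITGB8 in 1 each. No fold is given where a group lay under that level, since a true level cannot be read there. Replicates correlated at r from 0.9903 to 0.9983, with the rescue arrays closest together. For the actin gene ACTB, signal near the 3′ end exceeded signal near the 5′ end on every array. This excess was 2.19 log2 on control day 3 replicate 2 and 1.36 on replicate 1. Day 0 arrays had the lowest values, 0.93 and 1.08, and the remaining arrays had 1.19 to 1.71. Apart from leaving out each array, its part in the day 0 and day 3 comparisons was not tested. The spiked bacterial control bioB read 8.22 to 8.85 on 12 arrays, 7.54 and 7.58 on those of day 0, and 7.12 and 7.17 on those of the rescue, so a separate hybridization of rescue or of day 0 cannot be told apart from those groups. In such bulk RNA, fewer cells of a type and less RNA per cell cannot be told apart.

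**Figure D1:**
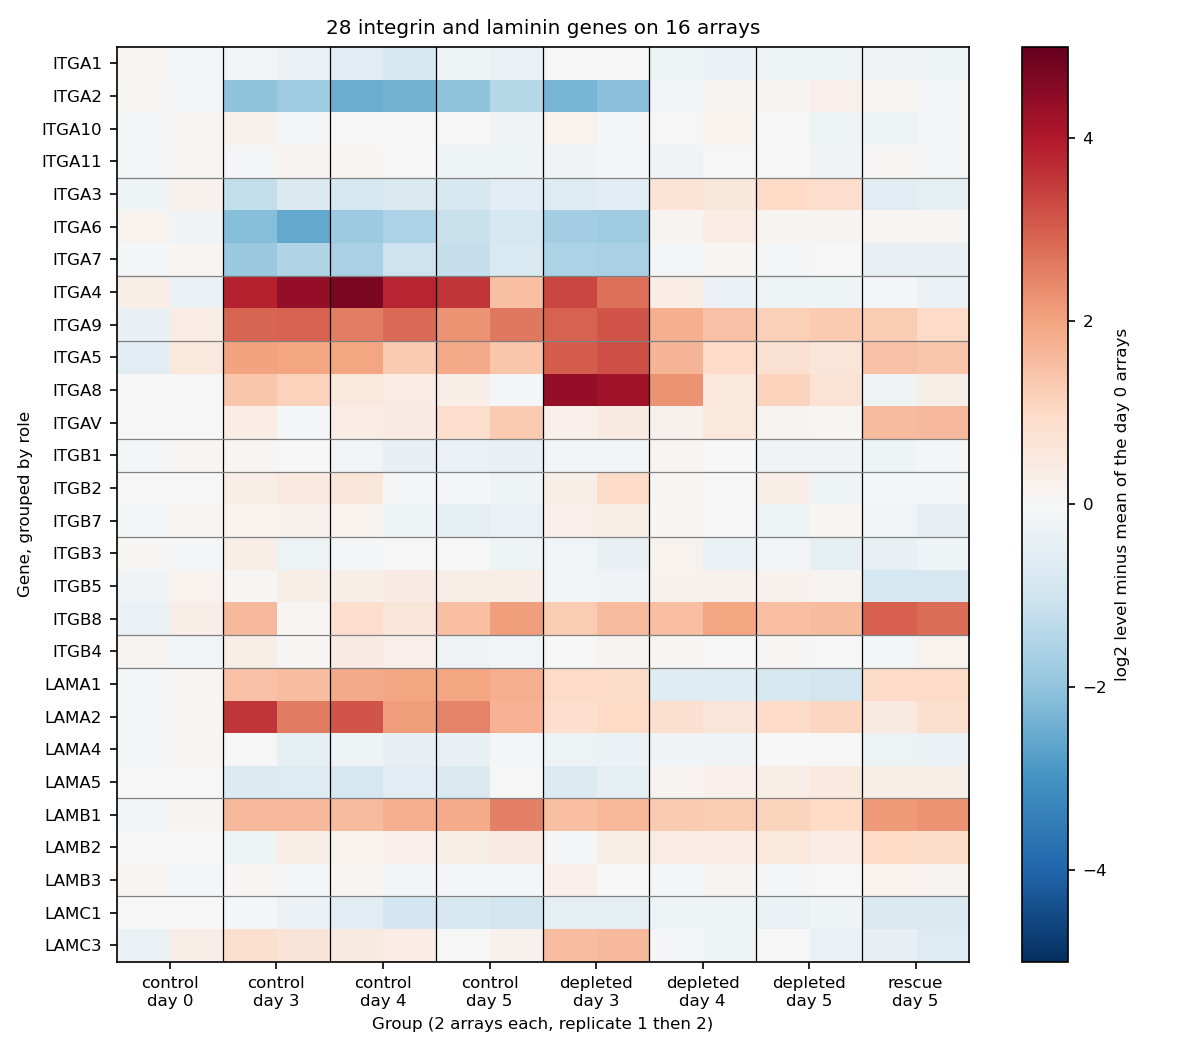
Levels of 28 integrin and laminin genes on 16 arrays, each as the log2 level minus the mean of the 2 control day 0 arrays (color scale), with genes grouped by role and horizontal lines between roles. Late depleted columns return toward white for ITGA2, ITGA6 and ITGA7, ITGA8 stands out in the 2 depleted day 3 arrays, and ITGB8 is highest in the 2 rescue arrays.

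Differentiation of control cells moved members in both directions. The laminin receptors ITGA3, ITGA6 and ITGA7 and the collagen receptor ITGA2 fell from day 0, whereas ITGA4, ITGA5 and ITGA9 and the laminin chains LAMA1, LAMA2 and LAMB1 rose. Between day 0 and day 3, 13 of 28 members were called, against 27.8% of all genes, with 8 higher (13.2% of all genes) and 5 lower (14.6%). Between day 0 and day 5, 14 were called, against 34.0% of all genes, with 8 higher (15.9%) and 6 lower (18.1%). From day 3 to day 5, 8 were called, against 11.6% of all genes, with 4 higher (6.11%) and 4 lower (5.45%). The median over the members was 0.11, −0.11 and −0.12 in these comparisons, and −0.01, −0.04 and −0.02 over all genes. These 3 comparisons share arrays and are not independent of one another.

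GATA6 depletion gave few called members at day 3 and more at days 4 and 5. At day 3, 4 of 28 were called, against 3.75% of all genes: ITGA8 and LAMC3 were higher (1.79% of all genes were) and LAMA1 and LAMA2 lower (1.96%). At day 4, 13 were called, against 28.2% of all genes, with 8 higher (14.8%) and 5 lower (13.3%). At day 5, 13 were called, against 32.6% of all genes, with 6 higher (16.5%) and 7 lower (16%). ITGA2, ITGA3, ITGA6, ITGA7, LAMA5 and LAMC1 were higher in depleted cells at days 4 and 5, and ITGA4, ITGA9, LAMA1 and LAMA2 were lower. The median over the members was 0.06, 0.06 and 0.08 at days 3, 4 and 5, and −0.01, −0.01 and 0.04 over all genes.

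**Figure D2:**
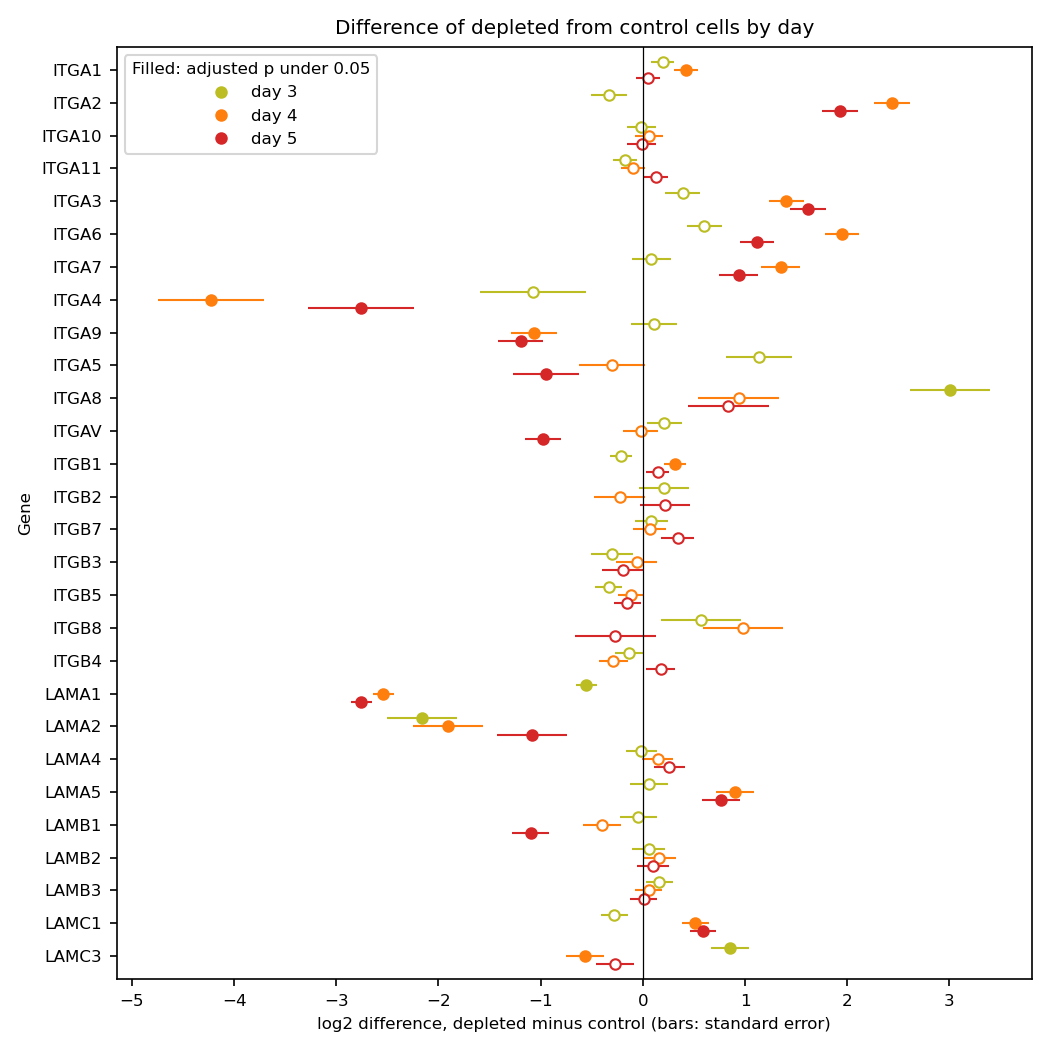
Log2 difference of depleted from control cells for each of 28 genes at days 3, 4 and 5 (points, with bars of 1 standard error, 2 arrays per group), filled where the adjusted p was under 0.05. Filled points number 4 at day 3 and 13 at each of days 4 and 5, with ITGA2 farthest to the right at day 4 (2.44) and ITGA4 farthest to the left (−4.22).

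Rescue cells at day 5 differed from depleted cells in 8 members, against 39.5% of all genes, with 5 higher (21.9%) and 3 lower (17.6%). They differed from control cells in 11 members, against 23.3% of all genes, with 5 higher (13.8%) and 6 lower (9.57%). The higher members against depleted cells were ITGAV, ITGB8, LAMA1, LAMB1 and LAMB2, and the lower ones ITGA3, ITGB5 and LAMC1. Against control cells ITGA2, ITGA6, ITGA7, LAMA5 and LAMB2 were higher, and ITGA4, ITGA9, ITGB5, LAMA1, LAMA2 and LAMC3 lower. The median over the members was −0.05 against depleted and 0.10 against control cells, and −0.03 and 0.02 over all genes. With the rescue arrays counted as 1 sample, the counts were 5 and 7.

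Among the laminin-binding alpha chains, ITGA6 fell and rose again as control cells differentiated. ITGA6 read 9.95 and 9.56 at day 0, 7.61 and 7.19 in control cells at day 3, 7.94 and 8.18 at day 4, and 8.66 and 8.89 at day 5. In depleted cells it read 8.02 and 7.98 at day 3, 9.88 and 10.14 at day 4, and 9.88 and 9.90 at day 5, and in rescue cells 9.86 and 9.82. The late depleted and rescue arrays lay within or near the range of day 0, above every differentiated control array. ITGA6 was 5.13-fold lower at control day 3 than at day 0 (−2.36 ± 0.17, adjusted p = 4.68e-07), was still below day 0 by day 5 (−0.98 ± 0.17, adjusted p = 4.96e-04), and rose 2.60-fold from day 3 to day 5 (1.38 ± 0.17, adjusted p = 2.84e-04). Depleted cells exceeded control cells by 3.86-fold at day 4 (1.95 ± 0.17, adjusted p = 3.28e-06) and by 2.17-fold at day 5 (1.12 ± 0.17, adjusted p = 2.09e-04), and at day 3 the difference was 0.60 and not called. Rescue cells exceeded control cells 2.09-fold (1.06 ± 0.17, adjusted p = 6.16e-04). For that last comparison, the 3 probe sets of ITGA6 ranged from −0.15 to 1.41. The 11 pluripotency markers moved beside these receptors: 8 were higher and 1 lower in depleted than in control cells at day 4 (median 1.35), and 7 higher and 2 lower at day 5 (median 0.87). Over all genes, 14.8% were higher and 13.3% lower at day 4, and 16.5% higher and 16% lower at day 5. The part of these markers in the ITGA2, ITGA6 and ITGA7 differences was not tested.

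ITGA7, which pairs with ITGB1 and is best known from muscle, showed a similar pattern. ITGA7 read 7.15 and 7.36 at day 0, 5.41 and 5.74, 5.63 and 6.23, and 6.05 and 6.48 in control cells at days 3, 4 and 5, and 5.66 and 5.65, 7.19 and 7.36, and 7.17 and 7.24 in depleted cells. Its control groups did not overlap day 0 at any day, and its depleted arrays of days 4 and 5 were at the day 0 level. The differences were −1.69 ± 0.19 from day 0 to control day 3 (adjusted p = 2.75e-05) and 1.35 ± 0.19 between depleted and control cells at day 4 (adjusted p = 1.65e-04). At day 5 depleted cells were higher by 0.94 ± 0.19 (adjusted p = 0.00211). Rescue cells, at 6.89 and 6.90, lay between depleted and control cells and were called only against control (0.63 ± 0.19, adjusted p = 0.0321), a call lost with the rescue arrays as 1 sample (adjusted p = 0.134).

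ITGA3, the alpha chain of an epithelial laminin receptor, was higher in depleted cells and near the control level in rescue cells. ITGA3 read 5.35 and 5.76 at day 0, 4.33 and 4.84, 4.71 and 4.84, and 4.75 and 5.00 in control cells, 4.92 and 5.04, 6.25 and 6.11, and 6.54 and 6.44 in depleted cells, and 5.02 and 5.10 in rescue cells. Depleted cells at day 5 were above day 0 and every control array, and rescue cells lay near control. ITGA3 was 2.64-fold higher with depletion at day 4 (1.40 ± 0.17, adjusted p = 5.15e-05) and 3.07-fold higher at day 5 (1.62 ± 0.17, adjusted p = 1.35e-05), and rescue cells were 2.69-fold below depleted cells (−1.43 ± 0.17, adjusted p = 2.52e-05). The 3 probe sets differed in size, from −0.30 to 1.40 at day 4 and from 0.08 to 1.62 at day 5, and with their mean the depletion differences were 0.37 and 0.63 and that of rescue from depleted cells −0.70, all still called. The fall to control day 5 (−0.68) was −0.20 over that mean and not called (adjusted p = 0.115).

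ITGA2, a collagen receptor chain of epithelial cells and platelets, was low in every control array after day 0 and high in late depleted and rescue cells. ITGA2 read 6.33 and 6.22 at day 0, 4.27 and 4.51, 3.80 and 3.91, and 4.25 and 4.83 in control cells at days 3, 4 and 5. In depleted cells it read 3.94 and 4.17 at day 3, 6.15 and 6.43 at day 4, and 6.43 and 6.52 at day 5, and in rescue cells 6.36 and 6.21. At day 3 the depleted arrays lay just below control, and at day 4 they stood far above. ITGA2 fell 3.70-fold from day 0 to control day 3 (−1.89 ± 0.18, adjusted p = 5.08e-06) and was 3.33-fold lower at day 5 (−1.74 ± 0.18, adjusted p = 7.22e-06). In depleted cells it was 5.42-fold higher than in control cells of day 4 (2.44 ± 0.18, adjusted p = 8.20e-07), and by day 5 the excess was 3.82-fold (1.93 ± 0.18, adjusted p = 4.08e-06). Rescue cells exceeded control cells 3.35-fold (1.74 ± 0.18, adjusted p = 2.49e-05) and differed from depleted cells by −0.19 (95% confidence interval −0.57 to 0.19). Of the other collagen-binding chains, ITGA10 and ITGA11 were called in no comparison of 2 groups, with means from 4.28 to 4.52 and from 3.74 to 4.00, and ITGA1 was called only between depleted and control cells at day 4, at background, a call lost without any of 3 arrays.

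**Figure D3:**
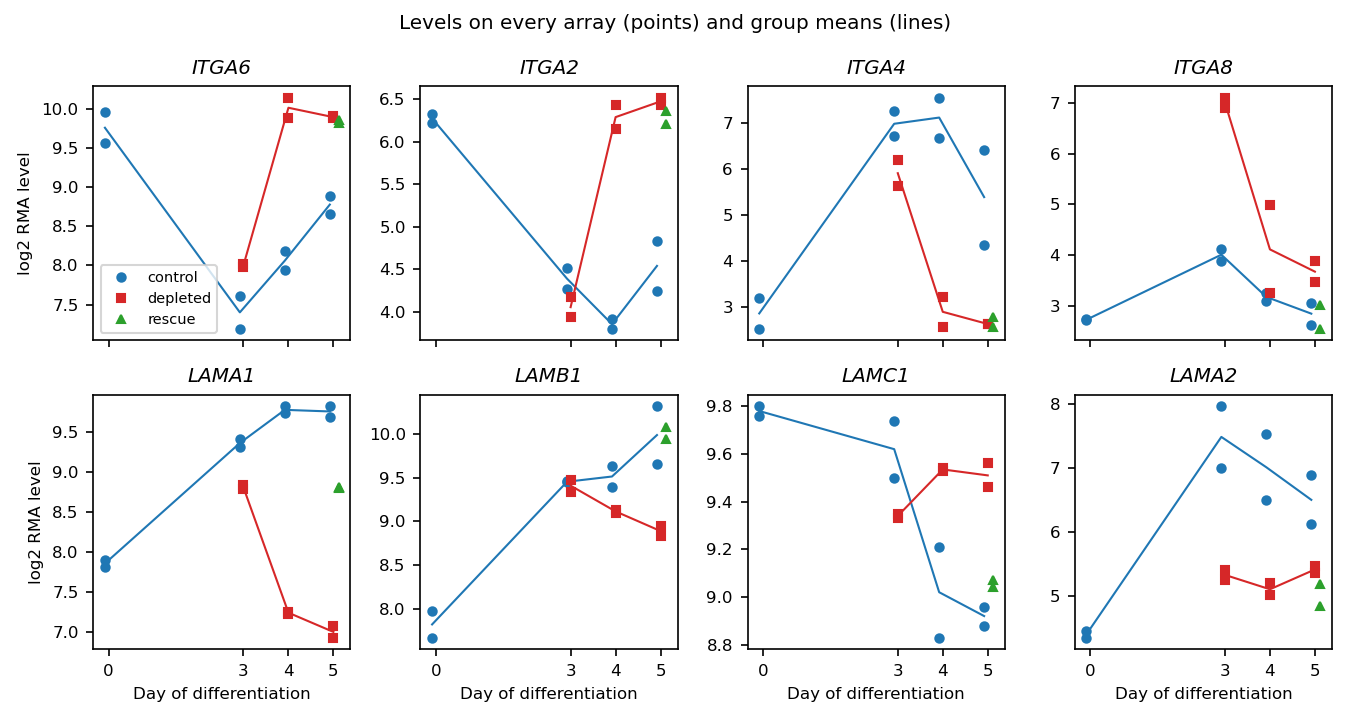
Log2 level of 8 genes on every array against day of differentiation, with lines through the group means of control and depleted cells and the rescue arrays at day 5, on an axis set for each gene. ITGA6 and ITGA2 fall and are higher in late depleted and rescue cells, ITGA4 is high at days 4 and 5 in control cells only, ITGA8 peaks in depleted cells at day 3 (7.11 and 6.91), and for LAMA1 the rescue arrays (8.81 and 8.80) lie between depleted and control cells.

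ITGA4, whose chain binds VCAM1 and fibronectin and is known from leukocytes, neural crest and mesoderm, showed the largest differences of the set. ITGA4 read 3.19 and 2.52 at day 0, 6.71 and 7.25 in control cells at day 3, 7.55 and 6.68 at day 4, and 6.42 and 4.35 at day 5. In depleted cells it read 6.19 and 5.62 at day 3, 3.22 and 2.56 at day 4, and 2.62 and 2.63 at day 5, and in rescue cells 2.77 and 2.57. At day 3 the control and depleted arrays were all far above day 0, and from day 4 depleted and rescue arrays were at background. The depletion difference at day 3 was −1.07 and not called. The arrays did not overlap there, and all 5 probe sets were lower in depleted cells (−1.46 to −0.49). The differences were 4.12 ± 0.52 from day 0 to control day 3 (adjusted p = 6.19e-05), 2.53 ± 0.52 to day 5 (adjusted p = 0.00194), −4.22 ± 0.52 between depleted and control cells at day 4 (adjusted p = 5.15e-05) and −2.76 ± 0.52 at day 5 (adjusted p = 0.00118). Rescue cells were below control cells by −2.71 ± 0.52 (adjusted p = 0.00242). The control day 5 arrays differed by 2.07, and without replicate 1 of that group the depletion difference at day 5 was −1.72 (adjusted p = 0.00796), that of rescue from control −1.68, and the rise from day 0 was 1.49. The other 4 probe sets of ITGA4 gave smaller differences, and at day 5 ranged up to 0.23, with 4 of 5 of the same sign. With the mean of the 5 the depletion differences were −2.72 at day 4 and −1.26 at day 5, that of rescue from control was −1.29, and the rises from day 0 to control days 3 and 5 were 2.53 and 1.17, all still called.

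ITGA9, the close relative of ITGA4 that binds tenascin and VCAM1, rose likewise. ITGA9 read 4.11 and 4.87 at day 0, 7.41 and 7.42, 7.03 and 7.32, and 6.75 and 7.11 in control cells, 7.42 and 7.64, 6.28 and 5.94, and 5.69 and 5.79 in depleted cells, and 5.76 and 5.45 in rescue cells. Depleted cells differed from control by 0.11 at day 3, not called, and lay between control and day 0 afterward. ITGA9 rose 7.62-fold from day 0 to control day 3 (2.93 ± 0.22, adjusted p = 8.22e-07) and was 5.45-fold above day 0 at day 5 (2.45 ± 0.22, adjusted p = 2.85e-06). Depleted cells were 2.09-fold lower at day 4 (−1.06 ± 0.22, adjusted p = 0.00292) and 2.29-fold lower by day 5 (−1.20 ± 0.22, adjusted p = 0.00113), and rescue cells were 2.52-fold below control (−1.33 ± 0.22, adjusted p = 0.00100). Over the mean of its 3 probe sets the rises to control days 3 and 5 were 1.62 and 1.29, the depletion differences −0.65 and −0.58, and that of rescue from control −0.67, all still called.

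The alpha chains that bind the RGD sequence of fibronectin and related proteins moved in 3 different ways. ITGA5, the main fibronectin receptor chain, read 4.38 and 5.44 at day 0, 6.94 and 6.87, 6.88 and 6.20, and 6.79 and 6.31 in control cells, 7.93 and 8.15, 6.61 and 5.87, and 5.67 and 5.53 in depleted cells, and 6.38 and 6.30 in rescue cells. Its highest arrays were the depleted ones of day 3, which did not overlap control. ITGA5 rose 3.98-fold from day 0 to control day 3 (1.99 ± 0.33, adjusted p = 4.83e-04) and was 3.11-fold higher at day 5 (1.64 ± 0.33, adjusted p = 0.00155). The depletion difference was 1.14 ± 0.33 at day 3, not called (adjusted p = 0.0779), and −0.95 ± 0.33 at day 5 (adjusted p = 0.0403), a call lost over the mean of its 4 probe sets (−0.44, adjusted p = 0.106), with the rescue arrays as 1 sample (adjusted p = 0.0548) and without any of 7 arrays (adjusted p up to 0.230). Over that mean the rise to control day 5 was 1.02.

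ITGA8, a chain known for its role in kidney development, stood above all other groups in depleted cells at day 3. ITGA8 read 2.71 and 2.73 at day 0, 4.12 and 3.89, 3.25 and 3.09, and 3.06 and 2.62 in control cells, 7.11 and 6.91, 4.98 and 3.24, and 3.88 and 3.46 in depleted cells, and 2.54 and 3.02 in rescue cells. No other group had an array above 5, and most lay near background. Depleted cells exceeded control cells at day 3 8.03-fold (3.00 ± 0.40, adjusted p = 0.00110), and the difference of 0.94 at day 4 was not called, with overlapping arrays. The smaller rise from day 0 to control day 3 (1.28 ± 0.40, adjusted p = 0.0278) was lost without any 1 of the 4 arrays compared (adjusted p from 0.0709 to 0.120). The mesoderm markers, 12 genes, had a mean of 7.62 to 7.79 on the depleted day 3 arrays and 6.98 to 7.37 on the control ones. Of these 12, 2 were called higher and 1 lower in depleted cells at day 3 (1.79% and 1.96% of all genes). Their median difference was 0.27, and single markers ranged from −0.84 to 2.995. The part of these markers in the ITGA8 difference was not tested.

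ITGAV, the vitronectin receptor chain, was high in every group and rose late in control cells. ITGAV read 9.02 and 9.09 at day 0, 9.43 and 8.97, 9.43 and 9.45, and 9.92 and 10.37 in control cells, 9.30 and 9.52, 9.27 and 9.57, and 9.21 and 9.12 in depleted cells, and 10.63 and 10.66 in rescue cells. The rescue arrays were the highest of all. Control cells at day 5 were 2.13-fold above day 0 (1.09 ± 0.17, adjusted p = 3.05e-04), depleted cells at day 5 were 1.97-fold below control (−0.98 ± 0.17, adjusted p = 7.79e-04), and rescue cells were 2.80-fold above depleted cells (1.49 ± 0.17, adjusted p = 1.95e-05). All 5 probe sets had the same sign in these 3 comparisons. Rescue cells differed from control cells by 0.51, not called. There the 5 probe sets ranged from −0.51 to 0.69, with 4 of the same sign.

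Among the beta chains, the shared chain ITGB1 was high in all groups and hardly moved on the probe set used. Its group means there ran from 11.55 at control day 5 to 11.94 at control day 3. The 5 probe sets of ITGB1 ranged from −0.89 to 0.14 between control day 5 and day 0. For depleted against control cells they ranged from −0.82 to 0.12 at day 3 and from −0.13 to 0.86 at day 4. ITGB1 was called in 3 comparisons, at −0.32 and −0.39 between control day 5 and days 0 and 3 and at 0.31 between depleted and control cells at day 4, each lost under cyclic loess scaling and without any of 8 or more arrays taken singly. Of the partners of ITGAV, ITGB5 was lower and ITGB8 higher in rescue than in depleted cells. ITGB5 read 8.96 and 8.99 in rescue cells, 10.07 and 9.99 in depleted cells at day 5, 10.19 and 10.17 in control cells at day 5, and from 9.65 up to 10.24 elsewhere. The rescue arrays were thus below every other array, 2.07-fold below depleted (−1.05 ± 0.13, adjusted p = 3.18e-05) and 2.30-fold below control cells (−1.20 ± 0.13, adjusted p = 4.18e-05), and ITGB5 was called in no other comparison. ITGB8, which with ITGAV activates latent TGF-beta, read 2.62 and 3.31 at day 0, 4.60 and 3.05, 3.86 and 3.56, and 4.46 and 5.07 in control cells, 4.23 and 4.55, 4.45 and 4.93, and 4.46 and 4.53 in depleted cells, and 5.94 and 5.75 in rescue cells. The rescue arrays were again the extreme, here the highest. ITGB8 was higher at control day 5 than at day 0 (1.80 ± 0.39, adjusted p = 0.00299), and rescue cells exceeded depleted cells 2.55-fold (1.35 ± 0.39, adjusted p = 0.0149), a call lost with the rescue arrays as 1 sample (adjusted p = 0.0644), without rescue replicate 1 (adjusted p = 0.0825) or without either depleted array. Over the mean of its 4 probe sets these differences were 0.59 and 0.45, still called. ITGB3 and the leukocyte chain ITGB2 were at background on nearly every array, ITGB4, which joins ITGA6 in hemidesmosomes, had means of 4.85 to 5.32 with no call, and the other leukocyte chain, ITGB7, was called only between control days 5 and 3 (−0.62 ± 0.16, adjusted p = 0.0244), a call lost without any 1 of the 4 arrays compared (adjusted p from 0.0629 to 0.124).

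The laminin alpha chain LAMA1, found in the earliest embryonic basement membranes, was the member called in all 9 comparisons of 2 groups. LAMA1 read 7.81 and 7.90 at day 0, 9.31 and 9.41, 9.73 and 9.82, and 9.82 and 9.69 in control cells at days 3, 4 and 5. In depleted cells it read 8.83 and 8.78 at day 3, 7.23 and 7.25 at day 4, and 7.07 and 6.93 at day 5, and in rescue cells 8.81 and 8.80. Depleted arrays lay above day 0 at day 3 and below it afterward, and no groups that were compared overlapped. LAMA1 rose 2.83-fold from day 0 to control day 3 (1.50 ± 0.10, adjusted p = 3.22e-07) and 3.72-fold to day 5 (1.90 ± 0.10, adjusted p = 2.85e-08). With depletion it was 1.47-fold lower at day 3 (−0.55 ± 0.10, adjusted p = 0.0101), and the deficit was 5.81-fold at day 4 (−2.54 ± 0.10, adjusted p = 1.91e-08) and 6.75-fold by day 5 (−2.75 ± 0.10, adjusted p = 1.00e-08). Rescue cells were 3.50-fold above depleted cells (1.81 ± 0.10, adjusted p = 6.54e-08) and 1.93-fold below control cells (−0.95 ± 0.10, adjusted p = 4.16e-05). The day 3 depletion call was lost without either depleted array or control replicate 2 (adjusted p from 0.0569 to 0.0701) and with only the groups compared in the fit (adjusted p = 0.147). The call between control days 5 and 3 (0.39) was lost with only the groups compared in the fit (adjusted p = 0.241). It was also lost without control day 3 replicate 1 (0.35) or either control day 5 array (0.33 and 0.46). LAMA1 was read by 1 probe set.

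LAMA2, the alpha chain of muscle and nerve laminin, fell with depletion already at day 3 and was not higher in rescue than in depleted cells. LAMA2 read 4.35 and 4.45 at day 0, 7.97 and 7.01, 7.53 and 6.50, and 6.89 and 6.12 in control cells, 5.25 and 5.41, 5.20 and 5.01, and 5.36 and 5.47 in depleted cells, and 4.84 and 5.19 in rescue cells. Every differentiated control array lay above every depleted and rescue array. LAMA2 rose 8.51-fold from day 0 to control day 3 (3.09 ± 0.34, adjusted p = 2.30e-05) and was 4.30-fold above day 0 at day 5 (2.11 ± 0.34, adjusted p = 3.59e-04). In depleted cells the deficit was 4.47-fold at day 3 (−2.16 ± 0.34, adjusted p = 0.00401), then 3.76-fold at day 4 (−1.91 ± 0.34, adjusted p = 9.94e-04), and last 2.13-fold by day 5 (−1.09 ± 0.34, adjusted p = 0.0276). The day 5 difference was −0.70 without control replicate 1 (adjusted p = 0.230), and the call was also lost without either depleted array. Rescue cells were 2.81-fold below control (−1.49 ± 0.34, adjusted p = 0.00754), a call lost without that control array (−1.11, adjusted p = 0.0759) or without rescue replicate 1 (−1.32, adjusted p = 0.0706).

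LAMA5, the broadly expressed alpha chain that pluripotent cells also make, was higher with depletion. LAMA5 had group means of 6.78 to 7.15 in differentiated control cells, 7.69 and 7.91 in depleted cells at days 4 and 5, 7.50 at day 0 and 7.79 in rescue cells. Depleted cells were higher by 0.90 ± 0.19 at day 4 (adjusted p = 0.00253) and by 0.76 ± 0.19 at day 5 (adjusted p = 0.00652). The control day 5 arrays were 6.79 and 7.50, and without replicate 1 the day 5 difference was 0.41 (adjusted p = 0.0677), while without depleted replicate 2 it was 0.68 (adjusted p = 0.0542). The rescue call against control (0.64) was lost without that control array (0.29, adjusted p = 0.225), without either rescue array, over the mean of the probe sets (adjusted p = 0.0674) and under cyclic loess scaling (adjusted p = 0.0757). LAMA4, a chain of blood vessel laminin, had means of 3.97 to 4.31 and no call.

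LAMB1, the beta chain of the embryonic laminins, rose in control cells and was higher in rescue than in depleted cells. LAMB1 read 7.67 and 7.97 at day 0, 9.45 and 9.46, 9.39 and 9.64, and 9.66 and 10.32 in control cells, 9.34 and 9.48, 9.13 and 9.10, and 8.95 and 8.83 in depleted cells, and 9.95 and 10.08 in rescue cells. The depleted arrays overlapped control at day 3 and lay below it by day 5, still above day 0. LAMB1 rose 3.10-fold from day 0 to control day 3 (1.63 ± 0.18, adjusted p = 2.41e-05) and 4.50-fold to day 5 (2.17 ± 0.18, adjusted p = 1.41e-06). Depleted cells at day 5 were 2.14-fold lower (−1.10 ± 0.18, adjusted p = 4.89e-04), and rescue cells were 2.18-fold above them (1.12 ± 0.18, adjusted p = 2.96e-04) and 0.02 from control (95% confidence interval −0.37 to 0.42). LAMB2 was called only in the rescue, at 6.35 and 6.29 against 5.90 and 5.73 in depleted (0.50 ± 0.16, adjusted p = 0.0240) and 5.67 and 5.76 in control cells (0.60 ± 0.16, adjusted p = 0.0166). With the rescue arrays as 1 sample neither was called (adjusted p = 0.0947 and 0.0867), nor without either rescue array (adjusted p from 0.0719 to 0.112). LAMB3, an epidermal chain, was called in no comparison of 2 groups, with means of 3.67 to 3.87.

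The gamma chain LAMC1, which most laminins share, fell in control cells while LAMB1 rose. LAMC1 had means of 9.78 at day 0, 9.62, 9.02 and 8.92 in control cells, 9.34, 9.53 and 9.51 in depleted cells and 9.06 in rescue cells. The difference from day 0 to control day 5 was −0.86 ± 0.13 (adjusted p = 1.83e-04), and depleted cells were higher than control by 0.51 ± 0.13 at day 4 (adjusted p = 0.00859) and by 0.59 ± 0.13 at day 5 (adjusted p = 0.00323). All 5 probe sets were higher in depleted cells at these days. The day 4 call was lost when control replicate 2 was left out (0.33, adjusted p = 0.107), and that of rescue against depleted cells (−0.46) with the rescue arrays as 1 sample (adjusted p = 0.0617). LAMC3, a less common gamma chain, had its highest arrays in depleted cells at day 3, at 7.32 and 7.41 against 6.59 and 6.44 in control cells (0.85 ± 0.18, adjusted p = 0.0230), and was lower in depleted than in control cells at day 4 (−0.57 ± 0.18, adjusted p = 0.0352). The day 3 call was lost without either depleted array or control replicate 2 (adjusted p from 0.102 to 0.135), and the day 4 call without any 1 of its 4 arrays (adjusted p from 0.0873 to 0.161). LAMC3 was also called between rescue and control cells (−0.64), a call lost with the rescue arrays as 1 sample (adjusted p = 0.105).

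The depletion effect itself was compared between days, as the difference of the depleted minus control differences. Between day 4 and day 3, 12 of 28 members were called, against 15.3% of all genes, with 7 higher (8.35%) and 5 lower (6.95%). Between day 5 and day 3, 11 were called, against 17.9% of all genes, with 4 higher (8.63%) and 7 lower (9.26%). The effect on ITGA2 was 2.77 ± 0.25 higher at day 4 than at day 3 (adjusted p = 3.14e-05), while that on LAMA1 changed by −1.99 ± 0.14 (adjusted p = 7.77e-06). For ITGA8 the effect fell by 2.07 ± 0.56 (adjusted p = 0.0250), and for LAMC3 it turned from higher to lower in depleted cells, with a difference of −1.42 ± 0.26 (adjusted p = 0.00281). The effect on LAMA2 was not called as different between days (0.25 ± 0.49 at day 4 and 1.07 ± 0.49 at day 5). ITGAV and LAMB1 differed only between day 5 and day 3, by −1.19 ± 0.25 (adjusted p = 0.00490) and −1.05 ± 0.26 (adjusted p = 0.0132), and whether these differ from day 4 was not tested.

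Late depleted cells were also set against pluripotent cells. Between depleted day 5 and control day 0, 5 of 28 members were called, against 18.5% of all genes, with 4 higher (8.80%) and 1 lower (9.71%). ITGA9 (1.25 ± 0.22), ITGB8 (1.53 ± 0.39), LAMB1 (1.07 ± 0.18) and ITGA3 (0.93 ± 0.17) were higher than at day 0, and LAMA1 was lower (−0.86 ± 0.10). Over the mean of the probe sets these were 0.72 for ITGA9, 0.52 for ITGB8, 0.61 for LAMB1 and 0.43 for ITGA3, still called. The ITGB8 call was lost when control day 0 replicate 1 (1.19, adjusted p = 0.120) or either depleted array was left out (adjusted p = 0.0732 and 0.0810). Of the 14 members called between control days 5 and 0, 9 were not called here (64.3%), against 4040 of all 6158 such genes (65.6%). Among the 9 were ITGA2 (0.20, 95% confidence interval −0.19 to 0.58), ITGA4 (−0.23, −1.35 to 0.89) and ITGA6 (0.14, −0.23 to 0.50). For ITGA4 that interval is wide, and a missed call does not show equal levels.

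The 13 members called between depleted and control cells at day 5 were sorted by where the rescue arrays lay. ITGA3, ITGAV, LAMB1 and LAMC1 (4 of 13) differed from depleted and not from control cells. ITGA2, ITGA4, ITGA6, ITGA7, ITGA9, LAMA2 and LAMA5 (7 of 13) differed from control and not from depleted cells. LAMA1 differed from both and ITGA5 from neither. Over all 5904 genes called between depleted and control cells at day 5, these shares were 49.29%, 14.45%, 22.63% and 13.63%. All 3 comparisons share arrays, and some members change class when single arrays of day 5 or of other days are left out. The classes are therefore a description. With the rescue arrays as 1 sample the members' counts were 3, 5, 1 and 3 of 12, and with cyclic loess scaling 4, 5, 1 and 3 of 13. The pluripotency markers, 11 genes, had a mean of 6.69 to 6.70 on the rescue arrays and 9.09 to 9.12 on the depleted day 5 arrays, while ITGA2 and ITGA6 differed between these groups by −0.19 and −0.05, not called. The 3 probe sets of ITGA6 ranged from −0.94 to −0.02 there. The definitive endoderm markers had a mean of 8.73 to 8.76 on the rescue arrays.

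**Figure D4:**
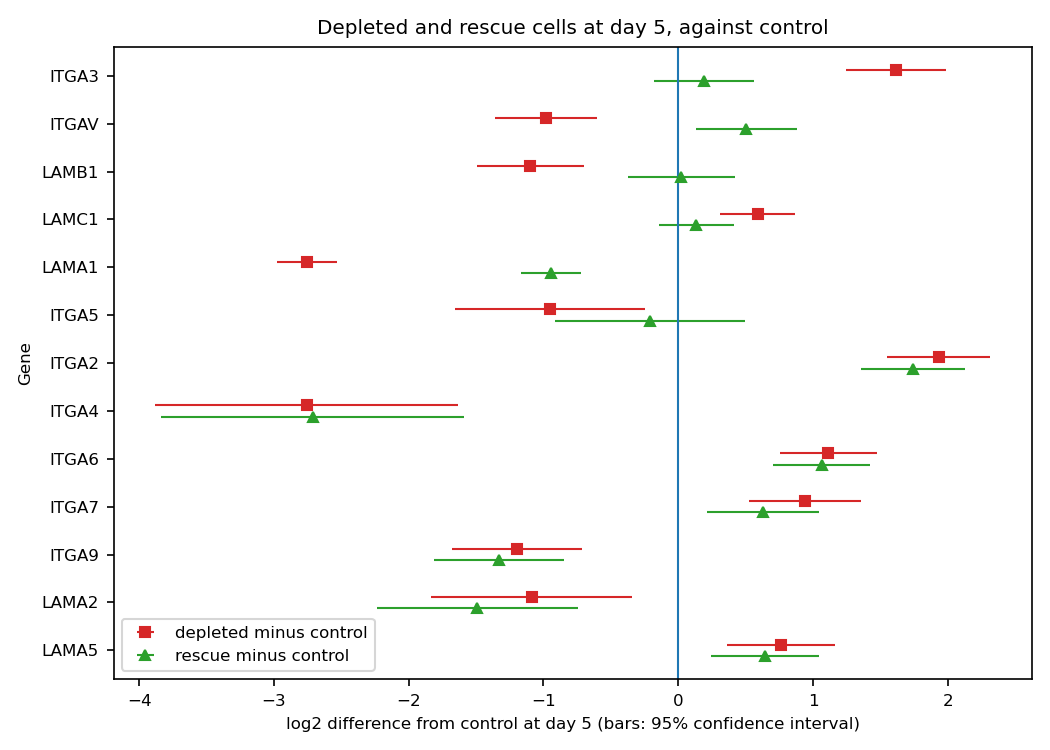
Log2 difference from control cells at day 5 for the 13 genes called between depleted and control cells, for depleted (squares) and rescue cells (triangles), with 95% confidence intervals from 2 arrays per group and a vertical line at 0. The top 4 genes, ITGA3, ITGAV, LAMB1 and LAMC1, have triangles nearer 0 than their squares, and the lowest 7, from ITGA2 to LAMA5, have triangles beside their squares.

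Genes that work with these members moved as well. Of 17 measured basement membrane partners (collagen IV, nidogen, perlecan, FRAS and FREM proteins and the like), 8 were higher and 1 lower at control day 5 than at day 0, where 15.9% and 18.1% of all genes were. In depleted cells 3 were lower at day 3, 9 lower and 3 higher at day 4, and 10 lower and 2 higher at day 5, and in rescue cells 11 were higher and 3 lower than in depleted cells. Over all genes, 1.96% were lower at day 3, 13.3% lower and 14.8% higher at day 4, 16% lower and 16.5% higher at day 5, and 21.9% higher and 17.6% lower in rescue against depleted cells. COL4A6 (−3.09 ± 0.19) and FREM1 (−3.35 ± 0.35), basement membrane proteins, and HSPG2, the proteoglycan perlecan (−1.98 ± 0.24), had the largest falls at day 5. Against depleted cells, rescue cells were higher in COL4A6 (3.42 ± 0.19), in NPNT, a ligand of the ITGA8 receptor (3.28 ± 0.39), and in COL4A5 (2.38 ± 0.14). The median of this list was −0.70 between depleted and control cells at day 5 and 0.83 between rescue and depleted cells.

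Of 19 other integrin ligands, 7 were higher and 6 lower in depleted than in control cells at day 5 (16.5% and 16% of all genes), led by the matricellular genes POSTN (3.64 ± 0.39), SPP1 (2.86 ± 0.42) and THBS1 (2.60 ± 0.38). Of 24 measured integrin adaptors and signaling genes, 11 were higher and 5 lower in the same comparison, among them FERMT1, an epithelial kindlin that activates integrins (2.25 ± 0.22), and TLN2, a talin that links integrins to actin (−2.36 ± 0.18). In rescue against depleted cells FERMT1 was lower (−3.17 ± 0.22) and TLN2 higher (1.66 ± 0.18). Fibroblast markers, 8 genes, had a mean level of 4.20 to 4.24 on the depleted day 5 arrays, 4.47 to 4.90 on the control and 4.64 to 4.67 on the rescue arrays. Between depleted and control cells at day 5, 2 of the 8 were called higher and 1 lower (16.5% and 16% of all genes). Their median there was −0.12, with differences from −4.40 to 0.91. The part of these markers in the ligand and adaptor differences was not tested.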

How the data were processed

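RNA was measured in 16 samples, each on 1 PrimeView array. RNeasy columns (Qiagen) served to isolate the RNA and a 3′ IVT Express kit to label it, per the labels. The authors normalized the scans by robust multi-array average in Partek Genomics Suite, whose version is not given in the sources used here, and deposited log2 values per probe set. The table held 49395 probe sets, of which 44994 named 1 gene, 1832 several and 2569 none by the platform's annotation, and only the first kind was used. The gene identifiers of 44967 were found in the RefSeq table, which changed 0 symbols. For each of 18132 genes the probe set of highest mean level across the arrays was taken. The 28 measured members had 80 probe sets, 1 each for 9 members and up to 8 for the other 19.

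All 16 arrays and all genes entered a model of group means (limma 3.58.1, R 4.3.3) with 8 residual and 4.58 prior degrees of freedom, tested two-sided, with Benjamini-Hochberg adjustment over all genes. The median standard error was 0.152 log2. The fit was tested on simulated data. There were 9 comparisons of 2 groups and 2 of depletion effects. The study describes replicates as independent differentiations. The rescue arrays lay closer together than other pairs (SD of their differences 0.1045, and 0.1634 to 0.2449 in the other groups), which leaves it uncertain whether they are independent, and p values measure the spread between these samples. The number of arrays limits the precision.

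Members called with a difference of at least 1 log2 are given on every array, GATA6 serves as the check of the labels, and up to 3 called members of a gene list may be named per comparison. The members and gene lists were chosen with earlier results of these data known. List genes without a probe set of 1 gene were not analysed here. Alternatives were the mean of a gene's probe sets, leaving out genes below the 25th percentile, cyclic loess scaling, trended and robust moderation, only the groups compared, a replicate block, the methods' thresholds (a z-score 3 or more from 0 with an unmoderated p up to 0.01), the rescue arrays as 1 sample, and leaving out each array. Lists of genes covered basement membrane partners, other integrin ligands, integrin adaptors and signaling genes, and markers of pluripotency, definitive endoderm, mesoderm, extraembryonic endoderm, trophoblast and amnion, neuroectoderm, fibroblasts and leukocytes. Python 3.11.15 with matplotlib 3.10.9 drew the figures.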

Additional observations from a re-analysis of the deposited data

Results flagged for a closer look

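The effect of GATA6 depletion differed between days for these members, by a test of the difference itself (limma, adjusted p under 0.05 over all genes). Values are the log2 effect of the later day minus that of day 3. At day 4 the effect was higher for ITGA2 (2.77), ITGA6 (1.35), ITGA7 (1.27), ITGA3 (1.01), LAMA5 (0.85), LAMC1 (0.79) and ITGB1 (0.53). It was lower for ITGA4 (−3.15), ITGA8 (−2.07), LAMA1 (−1.99), LAMC3 (−1.42) and ITGA9 (−1.17). At day 5 it was higher for ITGA2 (2.27), ITGA3 (1.23), LAMC1 (0.87) and ITGA7 (0.86). It was lower for LAMA1 (−2.20), ITGA8 (−2.17), ITGA5 (−2.08), ITGA9 (−1.31), ITGAV (−1.19), LAMC3 (−1.12) and LAMB1 (−1.05).

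Over the mean of a gene's probe sets, the effect at day 4 was 0.14 for ITGA3 (adjusted p = 0.562), −1.67 for ITGA4 (adjusted p = 0.0515) and −0.50 for ITGA9 (adjusted p = 0.106), and at day 5 it was 0.40 for ITGA3 (adjusted p = 0.0523) and −0.43 for ITGA9 (adjusted p = 0.155). The depleted day 4 arrays read 4.98 and 3.24 for ITGA8, and without replicate 2 the day 4 difference was −1.20 and still called (adjusted p = 0.0348). The ITGA8 call at day 4 was lost without either depleted day 3 array, control day 3 replicate 2 or either control day 4 array (adjusted p from 0.0537 to 0.0789), and at day 5 without depleted day 3 replicate 1, depleted day 5 replicate 2 or control day 5 replicate 1 (adjusted p from 0.0569 to 0.0676). The ITGA9 call at day 4 was lost without 5 different arrays (adjusted p from 0.0504 to 0.104). The 3 probe sets of ITGA3 ranged from −0.34 to 1.01 at day 4, and only the probe set used was positive. The calls that the most single arrays ended were those of LAMA5 and ITGB1 at day 4 and ITGA7 at day 5. LAMA5 was lost without any of 13 arrays (adjusted p from 0.0520 to 0.165), over the mean of the probe sets (adjusted p = 0.0791), under cyclic loess scaling (adjusted p = 0.0533) and with the rescue arrays as 1 sample (adjusted p = 0.0688). ITGB1 was lost without any of 8 arrays (adjusted p from 0.0548 to 0.138), over the mean (adjusted p = 0.0601), under cyclic loess scaling (adjusted p = 0.0520), with only the groups compared (adjusted p = 0.0881) and with the rescue arrays as 1 sample (adjusted p = 0.0548). ITGA7 at day 5 was lost without any of 10 arrays (adjusted p from 0.0576 to 0.162), with only the groups compared (adjusted p = 0.0507) and with the rescue arrays as 1 sample (adjusted p = 0.0657). With only the groups compared ITGA8 at day 4 was lost too (adjusted p = 0.0725). Single arrays also ended the calls of ITGA3 at day 4 (without depleted day 3 replicate 1, adjusted p = 0.0515), ITGA4 at day 4 (without depleted day 4 replicate 2, adjusted p = 0.0547) and LAMB1 at day 5 (without depleted day 3 replicate 2, adjusted p = 0.0509).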

How the results depend on the processing

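Under the alternatives no called member value changed direction. Under the methods' thresholds the counts of members called were 4 and 0 at control days 3 and 5 against day 0, 1 between control days 5 and 3, 2, 3 and 2 for depletion at days 3, 4 and 5, 0 and 2 for rescue against depleted and control cells, 0 for depleted day 5 against day 0, and 2 and 2 for the depletion effects of days 4 and 5 against day 3. That rule keeps few genes by its construction, since it needs a z-score of 3 over all genes. With only the groups compared in the fit, control days 5 and 3 gave 2 members in place of 8. With the rescue arrays as 1 sample, the counts were 5 between control days 5 and 3, and 5 and 7 for rescue against depleted and control cells.

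Leaving out 1 array at a time gave 10 to 13 members for control day 3 and 12 to 15 for control day 5 against day 0, 3 to 8 between control days 5 and 3 (3 without control day 5 replicate 2), 2 to 6, 9 to 14 and 10 to 14 for depletion at days 3, 4 and 5 (2 at day 3 without either depleted array or without control replicate 2), 5 to 9 and 6 to 13 for rescue against depleted and control cells (5 without rescue replicate 1 or depleted day 5 replicate 2, 6 without rescue replicate 1), 4 to 7 for depleted day 5 against day 0, and 8 to 12 and 9 to 13 for the depletion effects. Where a group kept 1 array, it was assumed to vary like the other groups.

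Replicate numbers did not pair the samples: the correlation of replicate 1 deviations between groups ran from −0.0676 to 0.253. With a replicate block the counts were 13, 15 and 8 for the control comparisons, 4, 12 and 13 for depletion, 8 and 11 for rescue and 6 for depleted day 5 against day 0. The block ended the calls of LAMC3 between control days 5 and 3 (adjusted p = 0.0572) and of ITGB1 for depletion at day 4 (adjusted p = 0.0565).

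Over all genes, the methods' thresholds called 236 to 415 genes in each comparison, in place of 680 to 7156. With only the groups compared, the calls were 2402 in place of 5045 at control day 3 and 3912 in place of 6158 at control day 5 against day 0, 573 in place of 2096 between control days 5 and 3, 161 in place of 680 for depletion at day 3, and 1785 in place of 3356 for depleted day 5 against day 0. With the rescue arrays as 1 sample, rescue against control cells gave 2085 calls in place of 4230.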

Other observations

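Markers of other lineages were read on the same arrays, as the mean log2 level over each list. The 9 extraembryonic endoderm markers, of interest because such cells also make LAMA1 and LAMB1, ranged from 4.06 to 5.11 over all arrays, with 4.86 to 5.11 in control, 4.57 to 4.61 in depleted and 4.13 to 4.18 in rescue cells at day 5. Of these, 3 were higher and 2 lower in depleted than in control cells at day 5, a comparison in which 16.5% of all genes were higher and 16% lower. The 10 trophoblast and amnion markers read 3.87 to 3.93 in control, 4.30 to 4.34 in depleted and 3.94 to 4.00 in rescue cells at day 5, with 3 higher and 1 lower in depleted than in control cells. The 8 neuroectoderm markers read 3.62 in control, 3.65 to 3.69 in depleted and 3.06 to 3.10 in rescue cells at day 5, and 5 of the 8 lay under the lower quartile of the arrays in every group. Between depleted and control cells at day 5, 3 of the 8 were called higher and 2 lower. Their differences ran from −3.86 to 4.56, so the similar means hide moves in opposite directions. The part of these markers in the integrin and laminin differences was not tested.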
